A study of Mus musculus with 12 samples.

Results

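Transcripts of the chondrogenic Sox factors and of non-collagen cartilage genes were followed in mouse limbs that carry or lack Lmx1b, the LIM homeobox gene that gives limb mesenchyme its dorsal identity. The set holds 3 transcription factor genes, Sox5, Sox6 and Sox9, and 7 genes for matrix or secreted proteins, Acan, Matn1, Matn3, Matn4, Hapln1, Cnmd and Cytl1. They were chosen by name, and every probe set annotated to them was read, so that they make up 10 of the 18193 genes measured and are covered by 25 probe sets. RNA of C57BL/6 embryos homozygous for the Lmx1b null allele (KO, Lmx1b -/-) and of wild-type embryos (WT, Lmx1b +/+) was hybridised to Affymetrix Mouse Genome 430 2.0 arrays. Each genotype was taken at 11.5, 12.5 and 13.5 days post coitum (dpc), with 2 arrays in each of the 6 groups and 12 in all. The limb bud with its girdle was dissected at 11.5 and 12.5 dpc, whereas at 13.5 dpc the dissected piece was the zeugopod with the autopod. Each array holds the RNA of several pooled limbs, and the 2 arrays of a group came from different embryos, per the labels. The labels name forelimbs and hindlimbs. The hindlimb gene Pitx1 was at 5.76 to 6.28, around or below the median of all values (6.28), in the 8 arrays of 11.5 and 12.5 dpc. It was at 9.88 to 10.30 in the 4 arrays of 13.5 dpc, so this marker alone does not show hindlimbs in the earlier pools. The mean of 4 hindlimb genes, Pitx1 among them, was 6.42 to 6.62 at 11.5 dpc, 5.76 to 6.21 at 12.5 dpc and 8.20 to 9.37 at 13.5 dpc. No group carried any other allele or any agent. Values are on a log2 scale, on which a difference of 1 is a doubling.

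Cartilage of the limb skeleton forms from mesenchymal condensations in which Sox9, an HMG-box transcription factor, commits cells to the chondrocyte fate. Sox5 and Sox6, closely related SoxD proteins without an activation domain of their own, are switched on after Sox9 and work with it on the enhancers of cartilage genes. The matrix that differentiating chondrocytes then secrete is built on collagen II and on aggrecan, the proteoglycan encoded by Acan, which link protein (Hapln1) fastens to hyaluronan. Matrilins (Matn1, Matn3 and Matn4) are adaptor proteins that connect the collagen and proteoglycan networks, chondromodulin (Cnmd) is a cartilage glycoprotein that keeps blood vessels out, and Cytl1 is a small secreted protein of chondrocytes.

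Promoter sequences are shown for Acan, Matn1, Hapln1 and Cnmd, the 4 genes of the set in which both KO arrays lay below both WT arrays at every stage by the brightest probe set. Each run holds the 250 bases before the annotated start, 5′ to 3′ on the gene's strand, from RefSeq on GRCm38.p6, and 9 of the 10 genes (not Sox9) matched an entry, with 15 starts in all. The Acan window is chr7:79052976-79053225 (plus strand), the Matn1 window chr4:130944135-130944384 (plus), the Hapln1 window chr13:89540386-89540635 (plus) and the Cnmd window chr14:79662184-79662433 (minus). Capitals mark ACAAT or ACAAAG, short words of the kind that HMG-box proteins of the Sox family bind, TATAAA, and GGGCGG, the GC box, each searched on both strands, where overlapping matches run together and CCGCCC is a GC box on the other strand.
Acan: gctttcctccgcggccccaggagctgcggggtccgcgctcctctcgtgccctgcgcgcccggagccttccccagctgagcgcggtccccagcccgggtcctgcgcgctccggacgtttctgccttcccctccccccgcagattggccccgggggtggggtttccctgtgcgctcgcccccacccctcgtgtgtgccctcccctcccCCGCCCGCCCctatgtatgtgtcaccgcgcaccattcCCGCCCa
Matn1: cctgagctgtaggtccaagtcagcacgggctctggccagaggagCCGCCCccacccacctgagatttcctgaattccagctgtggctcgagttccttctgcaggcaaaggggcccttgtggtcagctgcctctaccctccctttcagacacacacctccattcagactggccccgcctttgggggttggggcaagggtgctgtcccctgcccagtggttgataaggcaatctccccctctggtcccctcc
Hapln1: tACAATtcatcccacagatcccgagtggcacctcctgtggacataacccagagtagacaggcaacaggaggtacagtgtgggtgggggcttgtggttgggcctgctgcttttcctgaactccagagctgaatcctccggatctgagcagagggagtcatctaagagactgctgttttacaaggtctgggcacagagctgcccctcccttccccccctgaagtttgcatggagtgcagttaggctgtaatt
Cnmd: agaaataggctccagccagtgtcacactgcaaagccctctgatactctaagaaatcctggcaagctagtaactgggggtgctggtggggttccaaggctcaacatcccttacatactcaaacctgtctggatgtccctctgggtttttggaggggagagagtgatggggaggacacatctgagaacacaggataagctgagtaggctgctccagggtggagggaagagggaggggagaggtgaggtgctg
The Acan window held 3 GC boxes, with first bases 44, 40 and 7 bases before the start, and 74.4% of its bases were G or C. The Matn1 window held 1 GC box, and the Cnmd window none of the 4 words. The Hapln1 window held 1 ACAAT, at the end of the window farthest from the start. An ACAAT or ACAAAG was present in 8 of the 15 windows, those of Hapln1, Sox5 and all starts of Sox6, and in 38.8% of the 32851 windows of the same length in the table. The GC box was present in 32.7% of all windows and TATAAA in 12.4%. A match is a match of letters only, and these windows hold none of the distal enhancers.

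Lmx1b itself was at 5.60 to 8.88 in the 6 KO arrays and at 9.28 to 10.27 in the 6 WT arrays, so every KO array was below every WT array. In KO arrays it was at 5.60 to 5.72 at 11.5 dpc, 6.50 to 7.02 at 12.5 dpc and 7.48 to 8.88 at 13.5 dpc. Prrx1, a marker of limb mesenchyme, was at 12.14 to 12.56 in every array. A pair of KO arrays stood apart from their partners. In KO replicate 2 at 12.5 dpc the heat shock gene Hspa1a was at 9.36 against 4.80 to 5.71 in the WT arrays, and the mean of 12 skeletal muscle markers was 8.48 against 9.81 in KO replicate 1. In KO replicate 2 at 13.5 dpc the embryonic globin Hbb-bh1 was at 12.91 against 10.48 in KO replicate 1, and the proximal limb gene Meis1 at 9.46 against 7.76. Lmx1b was at 8.88 in that array against 7.48 in KO replicate 1. Results that rest on these arrays are given with and without them. Stage coincides with the scan series in the labels and, at 13.5 dpc, with the dissected part. Limb identity moved with stage too: from 12.5 to 13.5 dpc the mean of 4 hindlimb genes went from 5.76 to 6.05 up to 8.20 to 8.23 in the WT arrays, and the mean of 3 forelimb genes from 8.77 to 8.85 down to 7.01 to 7.08. In the KO arrays the forelimb mean (Tbx5, Hoxc4 and Hoxc5) was 9.26 and 7.79 in replicates 1 and 2 of 12.5 dpc and 7.10 and 9.15 in those of 13.5 dpc. The forelimb mean thus also set apart the same pair of KO arrays. The hindlimb mean was 6.11 and 6.21 in KO replicates 1 and 2 of 12.5 dpc and 8.74 and 9.37 in those of 13.5 dpc. In KO replicate 2 of 13.5 dpc the hindlimb mean was thus high as well as the forelimb mean. Tbx5 alone moved less between these replicates, at 11.38 and 10.91 and at 9.63 and 9.93. The part of limb identity in the results was not tested. Stage cannot be told apart from scan series, dissected part or limb identity, which bears on each comparison with 13.5 dpc below.

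In WT limbs the whole set was higher at 12.5 than at 11.5 dpc. All 10 differences were positive, with a median of 1.20 on the log2 scale against -0.03 over all genes, and 6 of the 10 genes rose by limma (adjusted p under 0.05), where 6.67% of all genes rose. Cytl1 rose most, by 2.06 (SE 0.44, limma adjusted p = 0.0107), which is 4.16-fold, from values around the median of all values at 11.5 dpc. Matn1 rose by 1.88, Acan by 1.69, Matn4 by 1.61 and Hapln1 by 1.11, with limma adjusted p between 0.0135 and 0.0326. Among the Sox factors only Sox5 passed, with a rise of 0.66 (SE 0.15, limma adjusted p = 0.0141), while Sox9 differed by 0.47 (adjusted p = 0.0502) and Sox6 by 0.44 (adjusted p = 0.162). Leaving out 1 WT array of the contrast left a lone array in its group, and then 0 to 3 genes passed (0 without either WT array of 11.5 dpc or without WT replicate 2 of 12.5 dpc, 3 without WT replicate 1 of 12.5 dpc). The KO arrays that stood apart enter only through the shared estimate of spread, so the WT differences are the same without them.

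From 12.5 to 13.5 dpc the WT set split. Matn3 rose by 0.82 (SE 0.24, limma adjusted p = 0.0326) and Cytl1 by a further 1.46 (SE 0.44, limma adjusted p = 0.035), so that 2 of 10 genes rose beside 14.5% of all genes. Sox6 differed by 0.56, Matn4 by 0.54, Acan by 0.41, Hapln1 by 0.39, Matn1 by 0.24 and Sox9 by 0.14, none of which passed. Sox5 and Cnmd had their highest group mean in WT at 12.5 dpc, with differences of -0.27 and -0.16 that did not pass, and the other 8 genes had it in WT at 13.5 dpc. The passes of Matn3 and Cytl1 rested on having both WT arrays of 12.5 and of 13.5 dpc, and that of Cytl1 also on both WT arrays of 11.5 dpc. Leaving out 1 array at a time, the median of the 10 differences ran from 0.30 to 0.48.

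KO limbs also climbed between 11.5 and 12.5 dpc. All 10 differences were positive, with a median of 0.95, and 3 genes rose by limma: Cytl1 by 1.76 (adjusted p = 0.0229), Acan by 1.34 (adjusted p = 0.0382) and Sox6 by 0.69 (adjusted p = 0.0466), beside 6.22% of all genes. The rise depended on KO replicate 2 of 12.5 dpc: the median was 1.55 without it and 0.39 without replicate 1. The passes of these 3 genes rested on having both KO arrays of 11.5 dpc, and fewer passed without either WT array of 11.5 or 13.5 dpc. Without both KO arrays that stood apart the median was also 1.55. From 12.5 to 13.5 dpc none of the 10 rose, beside 10.4% of all genes, and 0 had an unadjusted limma p under 0.05. The 7 matrix and secreted protein genes had positive differences there (median 0.41) and the 3 Sox factors negative ones (median -0.23). Over all 10 genes the median was 0.26, and its direction depended on the KO arrays of 12.5 dpc. Without replicate 1 of that stage it was 0.99, without replicate 2 it was -0.35 with 9 genes lower, and without both KO arrays that stood apart it was -0.12 with 6 lower.

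**Figure D1:**
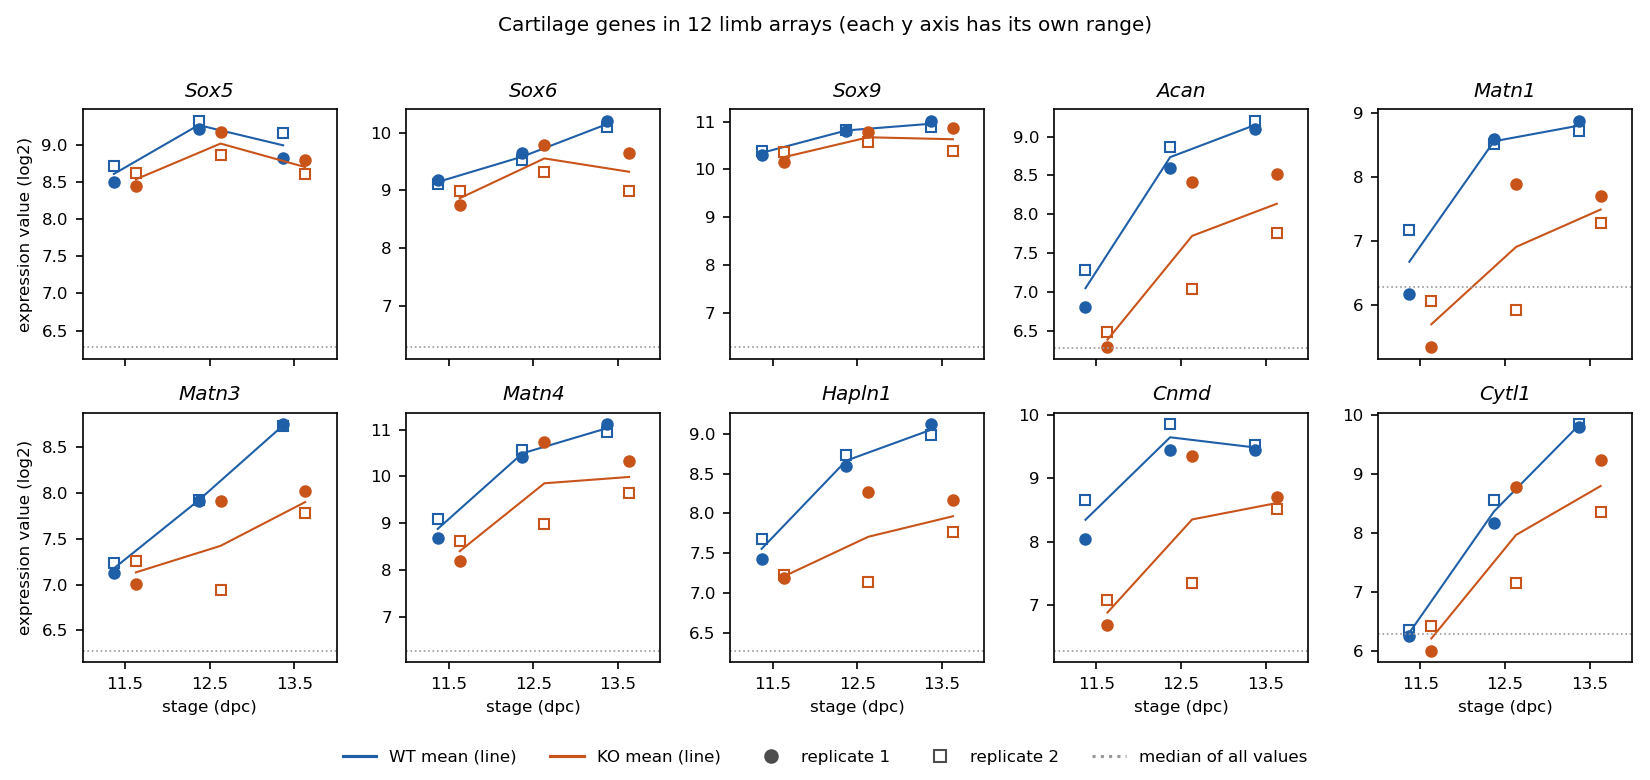
Log2 expression value (y axis, with its own range in each panel) of the 10 genes against stage (x axis, dpc), with WT in blue and KO in orange, filled circles for replicate 1, open squares for replicate 2, lines through the means of the 2 arrays and a dotted line at the median of all values on the arrays, 6.28. At 13.5 dpc both KO arrays lie below both WT arrays in all 10 panels, and at 12.5 dpc KO replicate 2 is the lowest of the 4 arrays in every panel.

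Across genotypes, every one of the 10 genes had a lower mean in KO than in WT limbs at every stage, and none passed the test over all genes. Over all genes the share of negative differences was 60.3% at 11.5 dpc, 54.3% at 12.5 dpc, 52.6% at 13.5 dpc and 58.6% for the mean of the stages. Averaged over the 3 stages, the differences ran from -1.31 for Matn1 to -0.19 for Sox9, with a median of -0.61 against -0.02 over all genes. In limma 0 of 10 passed (adjusted p from 0.175 for Hapln1 to 0.768 for Cytl1), where 0.203% of all genes passed, and 8 had an unadjusted p under 0.05, where 6.87% of all genes did. All 10 lay below the 5th percentile of all genes, -0.18. In bulk RNA, fewer chondrocytes and less RNA per chondrocyte cannot be told apart.

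In these means over the stages, the 7 matrix and secreted protein genes had a median of -0.80 (range -1.31 to -0.46) and the 3 Sox factors a median of -0.20 (range -0.38 to -0.19); the difference between the kinds of gene was not tested. The ranges overlapped at 11.5 dpc, where Sox6 was at -0.28 and Matn3 and Cytl1 at -0.04 and -0.10. On the linear scale Matn1 was 2.48-fold and Cnmd 2.32-fold lower in KO limbs, Acan 1.86-fold, Hapln1 1.74-fold, Sox6 1.30-fold and Sox9 1.14-fold. Without both KO arrays that stood apart all 10 differences stayed negative, with a median of -0.28 and Hapln1 at -0.54. Cytl1, at -0.09, was then smaller in size than Sox5 (-0.12) and Sox6 (-0.19). Leaving out KO replicate 1 of 12.5 dpc alone gave a median of -0.88, and leaving out KO replicate 2 of 12.5 dpc gave -0.36.

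**Figure D2:**
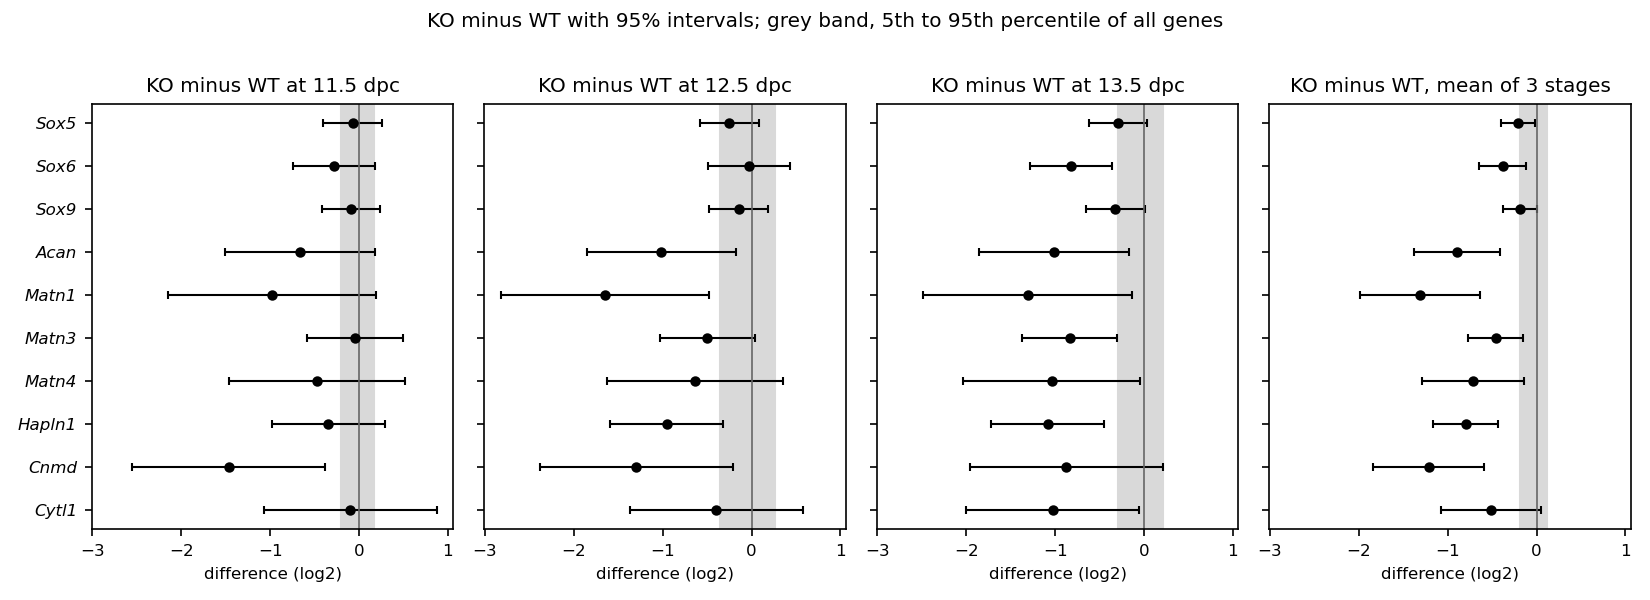
KO minus WT difference on the log2 scale (x axis) for each of the 10 genes (y axis) at 11.5, 12.5 and 13.5 dpc and averaged over the stages. Points are limma estimates with 95% intervals from 12 arrays, and the grey band spans the 5th to 95th percentile of all 18193 genes. Every point lies left of 0. By the brightest probe set of each gene, shown here, the Sox5 and Sox9 points lie closer to 0 than those of Acan, Matn1, Hapln1 and Cnmd in each panel.

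Sox9, the factor that starts chondrogenesis, had the smallest difference averaged over the stages, though not at any single stage. Its values at 11.5 dpc were 10.15 and 10.36 in KO and 10.30 and 10.39 in WT limbs, at 12.5 dpc 10.77 and 10.57 against 10.81 and 10.82, and at 13.5 dpc 10.87 and 10.39 against 11.02 and 10.89. The genotypes overlapped at 11.5 dpc and lay apart at 12.5 and 13.5 dpc, where KO replicate 2 was the lowest array each time. The differences were -0.09, -0.14 and -0.32 (SE 0.15 at each stage), and the 95% interval of their mean, -0.38 to 0.01, holds 0. Its second bright probe set gave -0.18, -0.12 and -0.35 at the 3 stages.

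Sox5 was at 8.44 and 8.62 in KO and 8.50 and 8.71 in WT limbs at 11.5 dpc, at 9.17 and 8.86 against 9.20 and 9.32 at 12.5 dpc, and at 8.79 and 8.60 against 8.82 and 9.16 at 13.5 dpc. The groups overlapped at 11.5 dpc and lay apart at both later stages, with KO replicate 1 close below the lower WT array each time. By the brightest probe set the differences were -0.07, -0.25 and -0.29 (SE 0.15). A second probe set had the same mean over the 12 arrays, 8.85. Its group means were 8.32 in KO and 8.67 in WT limbs at 11.5 dpc and 9.13 and 9.11 at 12.5 dpc. At 13.5 dpc they were 8.62 and 9.25, so the size of the Sox5 difference depended on the probe set. Ordered by level, WT at 12.5 dpc was highest and apart, and KO at 11.5 dpc was lowest. Arrays of WT at 11.5 dpc overlapped with those of KO at 11.5 and of KO at 13.5 dpc. Those of WT at 13.5 dpc overlapped with KO at 12.5 dpc and lay apart from KO at 13.5 dpc.

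Sox6 was at 8.74 and 8.98 in KO and 9.17 and 9.12 in WT limbs at 11.5 dpc. At 12.5 dpc it was at 9.79 and 9.31 in KO and 9.64 and 9.53 in WT limbs, where KO replicate 1 was the highest and KO replicate 2 the lowest array. At 13.5 dpc it was at 9.65 and 8.99 in KO against 10.21 and 10.09 in WT limbs, the widest gap of the 3 Sox genes. The differences were -0.28, -0.03 and -0.83 (SE 0.21), and the change of the KO effect from 12.5 to 13.5 dpc was -0.80 (SE 0.29, limma unadjusted p = 0.0215, adjusted p = 0.523). The other Sox6 probe sets gave smaller changes. Their means at 12.5 dpc were 9.01 in KO against 9.16 in WT limbs, 8.99 against 9.16 and 7.05 against 7.24. Without KO replicate 2 of 12.5 dpc, the Sox6 difference at that stage was 0.21. Sox6 also acts in skeletal muscle and in red cell precursors: the mean of 12 muscle markers was 8.48 in that array against 9.36 to 9.81 in the other 3 arrays of the stage, and the mean of 8 erythroid markers 9.98 against 9.41 to 9.66. Their part in the Sox6 values was not tested.

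Acan, which encodes the main proteoglycan core protein of cartilage, was at 6.29 and 6.48 in KO and 6.81 and 7.28 in WT limbs at 11.5 dpc. It was at 8.41 and 7.03 against 8.60 and 8.87 at 12.5 dpc, and at 8.51 and 7.76 against 9.09 and 9.20 at 13.5 dpc. Both KO arrays lay below both WT arrays at each stage. The differences were -0.66, -1.01 and -1.01 (SE 0.38). Hapln1, whose product ties aggrecan to hyaluronan, was at 7.18 and 7.23 in KO against 7.43 and 7.68 in WT limbs at 11.5 dpc, at 8.27 and 7.14 against 8.60 and 8.73 at 12.5 dpc, and at 8.16 and 7.76 against 9.12 and 8.98 at 13.5 dpc. By this brightest probe set the groups were apart at each stage, but the other 3 Hapln1 probe sets overlapped at 11.5 dpc, with differences of -0.13 to -0.04. At 12.5 dpc KO replicate 2 was no higher than the KO arrays of the stage before. The Hapln1 differences were -0.35, -0.95 and -1.08 (SE 0.29), and over the 3 stages -0.80 (SE 0.16, 95% interval -1.16 to -0.43).

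Matn1, the matrilin found mainly in cartilage, had the largest mean difference of the set. It was at 5.34 and 6.06 in KO and 6.17 and 7.18 in WT limbs at 11.5 dpc, at 7.89 and 5.93 against 8.60 and 8.52 at 12.5 dpc, and at 7.70 and 7.28 against 8.88 and 8.72 at 13.5 dpc. Both KO arrays were lower at each stage, but the KO arrays of 12.5 dpc differed between themselves by more than either genotype difference at the other stages. The probe set was above the median of all values, 6.28, in 8 of the 12 arrays, so the low KO values at 11.5 dpc are in the range of dim probe sets. The differences were -0.98, -1.65 and -1.31 (SE 0.53).

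Matn3, mutated in forms of epiphyseal dysplasia, did not separate the genotypes early. It was at 7.01 and 7.26 in KO and 7.12 and 7.23 in WT limbs at 11.5 dpc, at 7.91 and 6.94 against 7.91 and 7.93 at 12.5 dpc, and at 8.02 and 7.79 against 8.75 and 8.73 at 13.5 dpc. Only KO replicate 2 was set off at 12.5 dpc, and both KO arrays were at 13.5 dpc. The differences were -0.04, -0.50 and -0.84 (SE 0.24), and the KO effect at 13.5 dpc differed from that at 11.5 dpc by -0.79 (SE 0.34, limma unadjusted p = 0.0421, adjusted p = 1.00).

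Matn4 was at 8.19 and 8.62 in KO and 8.68 and 9.08 in WT limbs at 11.5 dpc, at 10.73 and 8.98 against 10.42 and 10.56 at 12.5 dpc, and at 10.33 and 9.64 against 11.11 and 10.95 at 13.5 dpc. At 12.5 dpc the KO arrays lay on either side of the WT arrays, and at the other stages both lay below. The differences were -0.48, -0.64 and -1.04 (SE 0.45). Without KO replicate 2 of 12.5 dpc, the difference at that stage was 0.24.

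Cnmd, the chondromodulin gene, was at 6.69 and 7.08 in KO and 8.04 and 8.65 in WT limbs at 11.5 dpc, at 9.36 and 7.35 against 9.44 and 9.85 at 12.5 dpc, and at 8.70 and 8.52 against 9.46 and 9.52 at 13.5 dpc. It was the gene of the set with the widest genotype gap at the earliest stage, and both KO arrays were below both WT arrays throughout. The differences were -1.46, -1.30 and -0.88 (SE 0.49). Cnmd is a relative of the tendon gene Tnmd, and the mean of 8 tendon markers was also lower in KO limbs at each stage, at 6.62 to 6.81 against 7.11 to 7.27, at 6.64 to 7.84 against 8.06 to 8.10, and at 7.49 to 7.53 against 8.29 to 8.41. The part of tendon cells in the Cnmd values was not tested.

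Cytl1 was at 5.99 and 6.42 in KO and 6.25 and 6.35 in WT limbs at 11.5 dpc, at 8.78 and 7.14 against 8.16 and 8.56 at 12.5 dpc, and at 9.23 and 8.35 against 9.80 and 9.84 at 13.5 dpc. The KO arrays enclosed the WT arrays at the 2 earlier stages and lay below them at 13.5 dpc. At 11.5 dpc the arrays of both genotypes lay on both sides of the median of all values, 6.28, so these values are close to the range of dim probe sets. The differences were -0.10, -0.40 and -1.03 (SE 0.44). Without KO replicate 2 of 12.5 dpc, the difference at that stage was 0.42.

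Taken by stage, the set differed most evenly at 13.5 dpc. At 11.5 dpc the median difference was -0.31 against -0.02 over all genes, 0 of 10 genes passed in limma beside 0.0165% of all genes, and 1 (Cnmd) had an unadjusted p under 0.05 beside 1.64%. At 12.5 dpc the median was -0.57, 0 passed beside 0.0385%, and 4 (Acan, Matn1, Hapln1 and Cnmd) had an unadjusted limma p under 0.05 beside 10.9%. At 13.5 dpc the median was -0.95, 0 passed beside 0.0275%, and 7 had an unadjusted limma p under 0.05 beside 5.9%, all but Sox5, Sox9 and Cnmd. Members below the 5th percentile of all genes numbered 6, 7 and 10 at the 3 stages. Without KO replicate 2 of 12.5 dpc the median at that stage was -0.07, with 3 genes higher in KO. Without KO replicate 1 of 12.5 dpc the median at that stage was -1.37. Neither array enters the differences at 13.5 dpc other than through the shared estimate of spread.

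Counting arrays in place of means, both KO arrays lay below both WT arrays in 6 of the 10 genes at 11.5 dpc (26.8% of all genes), in 7 at 12.5 dpc (19.3%) and in 10 at 13.5 dpc (22.3%). The 4 genes for which this held at all 3 stages, Acan, Matn1, Hapln1 and Cnmd, stand beside 239 genes in all, 1.31%. Some of the 7 genes at 12.5 dpc count by narrow margins. In Matn3, KO replicate 1 was at 7.9102 against 7.9107 in the lower WT array. In Sox5 and Sox9 it was at 9.17 and 10.77 against 9.20 and 10.81. These counts use the brightest probe set of each gene, and for Hapln1 the other 3 overlapped at 11.5 dpc. The other bright Sox5 probe sets overlapped at 12.5 dpc and lay apart at 11.5 dpc. Both KO arrays lay above both WT arrays in 0 of the 10 genes at 11.5 dpc (12.8% of all genes), at 12.5 dpc (15.0%) and at 13.5 dpc (11.6%), and shares this low leave little to read from a 0 of 10.

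Ordered by group mean, Acan, Matn1, Matn3, Matn4 and Hapln1 gave the same sequence: KO at 11.5, WT at 11.5, KO at 12.5, KO at 13.5, WT at 12.5 and WT at 13.5 dpc, from lowest to highest. In Acan, Matn1, Matn4 and Hapln1 the arrays of WT at 11.5 and KO at 12.5 dpc overlapped, as did those of KO at 12.5 and KO at 13.5 dpc, and the other neighbours lay apart. In Matn3 only WT at 13.5 dpc lay apart from its neighbour. Cnmd differed from this sequence in that WT at 12.5 dpc came last, overlapping with WT at 13.5 dpc, and Cytl1 in that WT at 12.5 dpc came before KO at 13.5 dpc, overlapping with it and with KO at 12.5 dpc. In Sox6 and Sox9 KO at 13.5 dpc came next above the groups of 11.5 dpc, below KO at 12.5 dpc with overlapping arrays, and WT at 13.5 dpc was highest and apart.

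Whether the KO effect itself changed between stages was tested as a difference of differences. From 11.5 to 12.5 dpc 0 of 10 genes passed in limma beside 0.0% of all genes, and 0 had an unadjusted p under 0.05 beside 6.22%. From 12.5 to 13.5 dpc 0 passed beside 0.0%, and 1 (Sox6) had an unadjusted limma p under 0.05 beside 8.5%. From 11.5 to 13.5 dpc 0 passed beside 0.0%, and 1 (Matn3) had an unadjusted limma p under 0.05 beside 2.07%. The medians of the 3 changes were -0.24, -0.16 and -0.45. The first became 0.32 without KO replicate 2 of 12.5 dpc or without both KO arrays that stood apart. The second became 0.32 without KO replicate 1 of 12.5 dpc and 0.05 without KO replicate 2 of 13.5 dpc, and the third stayed negative in each of these settings. The 95% intervals of single genes were wide, for example -1.54 to 0.84 for Acan from 11.5 to 13.5 dpc.

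**Figure D3:**
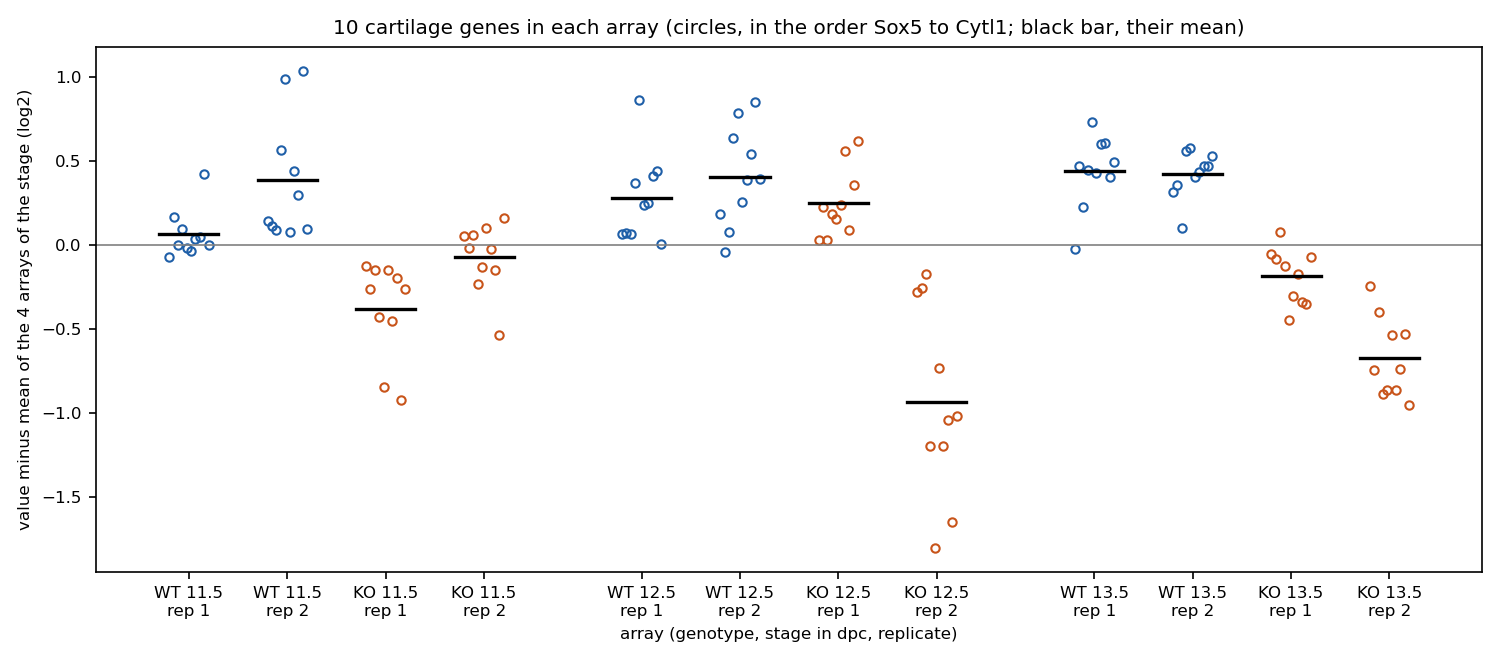
Value minus the mean of the 4 arrays of the same stage (y axis, log2) for each of the 10 genes (circles, from left Sox5 to Cytl1) in each of the 12 arrays (x axis, WT blue, KO orange), with a black bar at the mean of the 10. The bar of KO replicate 2 at 12.5 dpc is lowest, at -0.94, and that of KO replicate 1 at 12.5 dpc, at 0.25, is close to the WT bars of its stage, at 0.28 and 0.41.

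The 10 genes moved together between replicates in KO limbs, and less evenly in WT limbs. In KO replicate 2 of 12.5 dpc all 10 were lower than in replicate 1, by a median of 1.26 and by 0.20 to 2.01. KO replicate 1 of that stage had a mean deviation of 0.25, beside 0.28 and 0.41 in the WT arrays, so the KO difference at 12.5 dpc rested on replicate 2, without which 7 genes were lower and 3 (Sox6, Matn4 and Cytl1) higher. At 13.5 dpc KO replicate 2 was also lower than replicate 1 in all 10 genes, by a median of 0.45, yet without it the median difference was -0.66 and all 10 stayed negative. At 11.5 dpc replicate 2 was the higher one, in 10 of 10 genes in KO limbs (median 0.25) and 9 of 10 in WT limbs (median 0.23). In WT limbs replicate 2 was lower in 2 genes and higher in 8 at 12.5 dpc. At 13.5 dpc it was lower in 6 and higher in 4. Over all genes, the share lower in replicate 2 ran from 42.5% in KO at 11.5 dpc to 55.5% in WT at 13.5 dpc. Over all 18193 genes the spread between the arrays of a pair (root mean square difference) was 0.14 to 0.27 in 5 groups and 0.36 in KO at 12.5 dpc.

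Other features of the arrays that stood apart moved with these values. In KO replicate 2 of 12.5 dpc the tendon marker mean was 6.64 against 7.84 in replicate 1, the muscle gene Myh3 9.54 against 11.44, and the mean of 7 heat shock genes 9.01 against 8.15. In KO replicate 2 of 13.5 dpc the mean of 9 proximal limb genes was 9.97 against 9.04 to 9.30 in the other 3 arrays of the stage, the mean of 3 forelimb genes 9.15 against 7.01 to 7.10, and the mean of 8 erythroid markers 9.46 against 8.23 to 8.67. The mean of 4 hindlimb genes was 9.37 there against 8.20 to 8.74. Their part in the cartilage values was not tested.

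**Figure D4:**
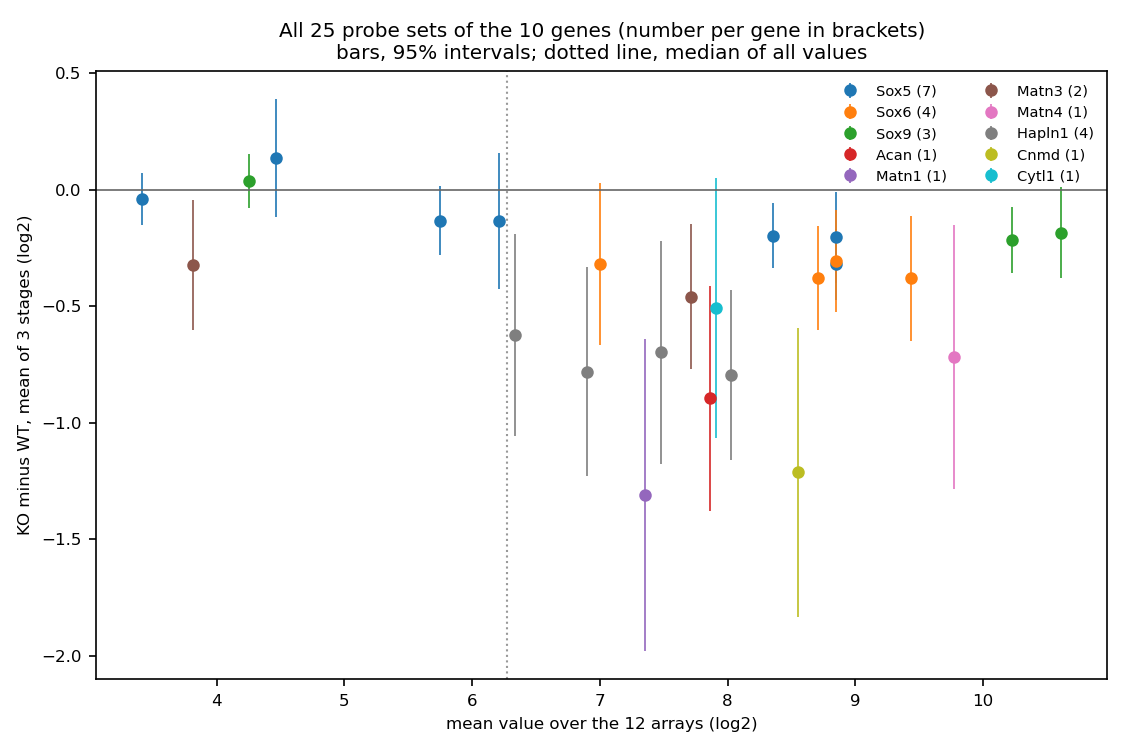
KO minus WT difference averaged over the 3 stages (y axis, log2, with 95% intervals) against the mean value over the 12 arrays (x axis, log2) for all 25 probe sets of the 10 genes, coloured by gene, with a dotted line at the median of all values. All 19 probe sets to the right of the line lie below 0, and 2 of the 6 to its left, one of Sox5 and one of Sox9, lie above it.

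The brightest probe set of each gene was used above, and the others did not always separate the genotypes at the same stages. Sox5 has 7 probe sets, Sox6 and Hapln1 4 each, Sox9 3, Matn3 2 and the other 5 genes 1 each. Of the 19 probe sets whose mean lay above the median of all values, 19 had a negative difference averaged over the stages, 19 at 11.5 dpc, 17 at 12.5 dpc and 19 at 13.5 dpc. Over all 45037 probe sets the negative shares were 50.8%, 50.5%, 52.1% and 48.6%. Probe sets of the same gene are not independent. In the fit over 45037 probe sets 0 of the 25 passed in limma beside 0.0711% of all, and 17 had an unadjusted p under 0.05 beside 7.32%. The 4 Sox6 probe sets gave mean differences of -0.38 to -0.31 and the 4 of Hapln1 -0.80 to -0.62. The 3 bright probe sets of Sox5 disagreed at 12.5 dpc, where the brightest gave -0.25 with the genotypes apart and the others 0.02 with overlap. At 11.5 dpc the reverse held: the brightest gave -0.07 with overlap and the others -0.36 and -0.26 with the genotypes apart. At 13.5 dpc the genotypes lay apart in all 3, with the narrowest gap in the brightest. The 6 dim probe sets, 4 of Sox5, 1 of Sox9 and 1 of Matn3, ran from -0.32 to 0.14 and carry little information.

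Genes whose pattern over the 12 arrays was most like the mean of the set were, in order of Pearson's r, Susd5 (0.994), Rflna (0.993), Chmp2b (0.987), Chad (0.985), 2510009E07Rik (0.984), Jazf1 (0.984), Col5a1 (0.978) and Col11a1 (0.978), among 12097 genes compared with a median r of -0.13. With the stage mean taken out, Susd5 led again (0.991), followed by Inpp5a, Calu, Tmem176b, Rflna, Nt5dc3, Cd83 and P3h1 (0.979). All 12 arrays share the stage differences and the KO array of 12.5 dpc that stood apart, so these values describe likeness and carry no p. Within the set, Acan (0.996) and Matn4 (0.993) followed the mean of all 10, which holds them, most closely and Sox5 (0.769) least.

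Other cartilage genes were counted in lists chosen by function, to be read against all genes, of which 58.6% were negative in the mean over the stages, 0.203% passed and 6.87% had an unadjusted limma p under 0.05. All 7 measured cartilage collagens had negative mean differences (median -0.45), with 0 that passed and 6 at an unadjusted limma p under 0.05: Col2a1, the collagen that defines cartilage, differed by -0.25, Col9a3 by -0.65, Col11a1 by -0.45 and Col9a1 by -0.17. Of 14 other cartilage matrix genes 12 were negative (median -0.26), 0 passed and 7 had an unadjusted limma p under 0.05, with Mia at -0.70 and Mgp, the matrix Gla protein gene, at -0.41. Of 13 genes for proteoglycan sulfation and chain synthesis 12 were negative (median -0.13), 0 passed and 3 had an unadjusted limma p under 0.05. Papss2, which makes the sulfate donor of cartilage proteoglycans, stood at -0.75 while its paralogue Papss1 stood at -0.14.

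Regulators and paralogues were counted in the same way. Of 19 measured chondrogenic regulators 17 were negative, with a median of -0.09, 0 that passed and 4 at an unadjusted limma p under 0.05, and the limb mesenchyme genes Prrx1 and Twist1 stood at 0.03 and -0.03. Of 10 growth plate signalling and hypertrophy genes 9 were negative (median -0.18), 0 passed and 6 had an unadjusted limma p under 0.05, with the receptor gene Fgfr3 at -0.36 and the hedgehog receptor and target Ptch1 at -0.20. Of 13 paralogues of the set 8 were negative (median -0.04), near the share of all genes, 0 passed and 3 had an unadjusted limma p under 0.05. Among these paralogues, the SoxC genes Sox4 and Sox11 stood at 0.05 and -0.04, Sox13, the third SoxD gene, at -0.06, and Vcan, the versican gene of the early mesenchymal matrix, at -0.23. Xylt1, Runx2, Pthlh and Spp1 were listed but not analysed here.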

How the data were processed

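The deposited table holds log2 expression values of 45101 probe sets on 12 arrays, which the authors made with RMA, as the submitters' processing notes say; 64 control probe sets were left out. RMA as a method corrects background, equalizes the arrays' distributions and summarises probes. No source used here gives its version. Probe sets were named from GEO's platform annotation (34945 with 1 gene, 932 with several, 9160 unnamed). Each gene was represented by its probe set with the highest mean, fixed without regard to genotype, which gave 18193 genes. Group means of the 6 groups were fitted (R 4.3.3) by lmFit and eBayes of limma 3.58.1 (6 residual and 4.22 prior degrees of freedom, two-sided, Benjamini-Hochberg over all genes, threshold 0.05), and 11 comparisons were made. The fit was tested on simulated data. With 2 arrays a group, the number of arrays limits the precision, and RMA compresses differences of dim probe sets. The members of the set, the gene and marker lists and the alternatives were chosen with earlier results of these data known. Named genes of a list are the up to 4 with the highest mean, beside any that passed between genotypes. Genes alike in pattern are the 8 with the highest correlation, among genes with a group mean above the median of all values. Alternatives were the mean of probe sets, all probe sets, a filter on dim genes, 2 further normalizations, an intensity trend with a robust prior, array weights, a replicate block, each stage alone, and arrays left out. Labels give 2 accounts of how many limbs a pool held, so none is stated.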

Additional observations from a re-analysis of the deposited data

Results flagged for a closer look

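A pair of dim probe sets, both below the median of all values in every array, showed KO arrays on opposite sides of the WT arrays at different stages. A Sox5 probe set had both KO arrays below both WT arrays at 12.5 dpc (-0.21) and above them at 13.5 dpc (0.063). A Sox9 probe set had them below at 11.5 dpc (-0.057) and above at 12.5 dpc (0.12) and 13.5 dpc (0.050). In limma over 45037 probe sets, 0 of the 25 passed for a change of the KO effect between stages, where 0 of all passed. The lowest adjusted p of the 25 was 0.342, from 12.5 to 13.5 dpc. No brighter probe set of either gene met the same condition.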

How the results depend on the processing

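Of 1290 values for single genes of the set under an alternative, 1186 kept their direction and their side of the threshold, 52 passed newly, 37 no longer passed and 15 changed sign. These values cover the genotype differences and the WT stage changes. The KO stage changes and the changes of the KO effect are not among them. Many of the values could not change direction, because leaving out an array that a comparison does not use keeps its estimate. Between genotypes over the 3 stages, 1 gene of the set passed without both KO arrays that stood apart and 1 under array quality weights, against 0. Leaving out 1 array at a time gave 0 to 7 genes over the 3 stages, 0 to 6 at 12.5 dpc and 0 to 2 at 13.5 dpc. For WT from 11.5 to 12.5 dpc it gave 0 to 9 (10 without both KO arrays), for WT from 12.5 to 13.5 dpc 0 to 3 (5 without both KO arrays, 1 with an intensity trend and robust prior), for KO from 11.5 to 12.5 dpc 0 to 9, and for KO from 12.5 to 13.5 dpc 0 to 7. For KO from 11.5 to 12.5 dpc, 5 passed with the mean of probe sets, 5 with dim genes left out, 6 with arrays centred and 10 without both KO arrays.

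Values that changed sign follow. Leaving out 1 array at a time, the KO minus WT difference at 11.5 dpc ran from -0.18 to 0.036 for Sox5, from -0.19 to 0.013 for Sox9, from -0.17 to 0.083 for Matn3 and from -0.31 to 0.115 for Cytl1, and that of Matn3 became 0.010 with arrays centred. At 12.5 dpc it ran from -0.27 to 0.21 for Sox6, from -1.52 to 0.24 for Matn4 and from -1.22 to 0.42 for Cytl1, and without both KO arrays that stood apart these 3 genes were at the same upper values, 0.21, 0.24 and 0.42. Cnmd in WT from 12.5 to 13.5 dpc ran from -0.37 to 0.044. The median change of the KO effect ran from -0.99 to 0.32 for 11.5 to 12.5 dpc (0.32 without both KO arrays) and from -0.69 to 0.32 for 12.5 to 13.5 dpc. The median of KO from 12.5 to 13.5 dpc ran from -0.35 to 0.99 and was -0.12 without both KO arrays. Fewer arrays were compared in these settings; no other cause was tested.

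The labels give the arrays of both genotypes the replicate numbers 1 and 2 but do not say that a number marks shared embryos. Deviations of same-numbered arrays correlated at 0.19, -0.12 and -0.087 at the 3 stages. With the replicate block, 0 genes of the set passed in each genotype comparison, 7 in WT from 11.5 to 12.5 dpc, 1 from 12.5 to 13.5 dpc, 2 in KO from 11.5 to 12.5 dpc and 0 from 12.5 to 13.5 dpc.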
